A study of Mus musculus with 4 samples.

Results

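The 10 genes described here are targets and feedback regulators of the Wnt/beta-catenin pathway: Rspo3, Lgr5, Rnf43, Znrf3, Ctnnb1, Axin2, Nkd1, Sp5, Glul and Tbx3. They were taken by name, out of 18193 genes with a probe set of their own on the arrays. Each was read from its brightest probe set by mean signal among those that the platform annotation assigns to 1 gene symbol, with 14 further probe sets as a check. RNA came from the liver of mouse fetuses on gestation day 17, from matings of C57BL6 females with Sox17+/- males of the same strain. The livers were Sox17+/- in 2 samples and wildtype in 2 samples. They had been dissected away from the biliary system, and each sample was hybridised to 1 Affymetrix array. The nature of the Sox17 allele, the sex of the fetuses and whether a sample was 1 fetus or a pool were not given in the sources used here. Sox17+/- animals carry 1 altered copy of Sox17 in all cells, so the comparison is not limited to any liver cell type. Since whole liver was measured, fewer cells of a type and less RNA per cell cannot be told apart.

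In the Wnt/beta-catenin pathway, a Wnt protein bound to a Frizzled receptor and an LRP co-receptor stops the destruction complex from breaking down beta-catenin. Beta-catenin then enters the nucleus and acts with TCF/LEF factors on genes such as Axin2, Nkd1, Rnf43 and Znrf3, whose products damp the signal again. In the adult liver this pathway is known for zonation: endothelial cells of the central vein supply Wnt proteins and R-spondin 3, and the hepatocytes next to the vein express Glul, Tbx3, Axin2 and Lgr5. SOX17, an endoderm and endothelial transcription factor, can bind beta-catenin and TCF/LEF proteins in cultured cells.

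The 4 arrays were on a common scale, each with a trimmed mean signal of 500 (2% of probe sets trimmed at either end). Sox17 gave 139 and 124 in Sox17+/- livers, against 244 and 264 in wildtype livers, a ratio of means of 0.518 on its brighter probe set (adjusted p = 0.9999 by limma). The sources used here do not place that probe set inside or outside the altered region. The hepatocyte markers that could be matched, 7 of 8, had probe sets between the 94.2 and 100 percentiles of brightness. Their summed signal was 270930 and 156058 in Sox17+/- livers against 273407 and 162010 in wildtype livers. The highest signal outside the controls was 56860 and 32468 in Sox17+/- livers against 56988 and 34407 in wildtype livers. At the bright end the arrays numbered 1 were thus higher than those numbered 2 in both genotypes, despite the common trimmed mean. Wildtype array 1 stood apart in beta-actin, with 11909.5 at the 3' end of the transcript against 24712 to 35014 on the other 3 arrays. Its ratio of 3' to 5' beta-actin signal was 1.95, against 1.205 to 1.43 on the others. The same ratio for Gapdh, another control transcript, was 0.853 on wildtype array 1 and 0.807 to 0.843 on the others.

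No gene of the set passed the test for a difference between genotypes. The log2 differences on the log2(signal + 16) scale ran from -0.64 for Sp5 to 0.42 for Nkd1, with a median of -0.01 over all 10. Tbx3, a hepatoblast and pericentral transcription factor, and Znrf3, a receptor-degrading ubiquitin ligase, were higher on both Sox17+/- arrays than on both wildtype arrays. Rspo3, the secreted amplifier of Wnt signalling, and Sp5, a transcription factor and direct Wnt target, were lower on both Sox17+/- arrays. For the other 6 genes the genotypes overlapped. Axin2, Lgr5 and Sp5 were too dim to enter the test. With limma, 0 of the 7 members tested had an adjusted p under 0.05, and 0 had an unadjusted p under 0.05. Across all 22519 probe sets tested 0 were called, which is 0%, and 916 had an unadjusted p under 0.05. The share of members without overlap between genotypes lay near that of all genes. They were 4 of 10, 2 in each direction, while 33.2% of tested genes did not overlap either way and 13.9% of all 18193 genes lay above and 19% lay below without overlap, 32.9% together. These counts moved with single arrays. The number above was 4 without wildtype array 1 and 5 without Sox17+/- array 2, and the number below was 4 without wildtype array 2, without Sox17+/- array 1 or without Sox17+/- array 2. When 1 array is left out fewer values have to be ordered, and 29.1% to 31.4% of all tested genes then lay above and 34.7% to 37.7% below. With 2 arrays in each genotype, the smallest two-sided p of an exact permutation test is 0.333.

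**Figure D1:**
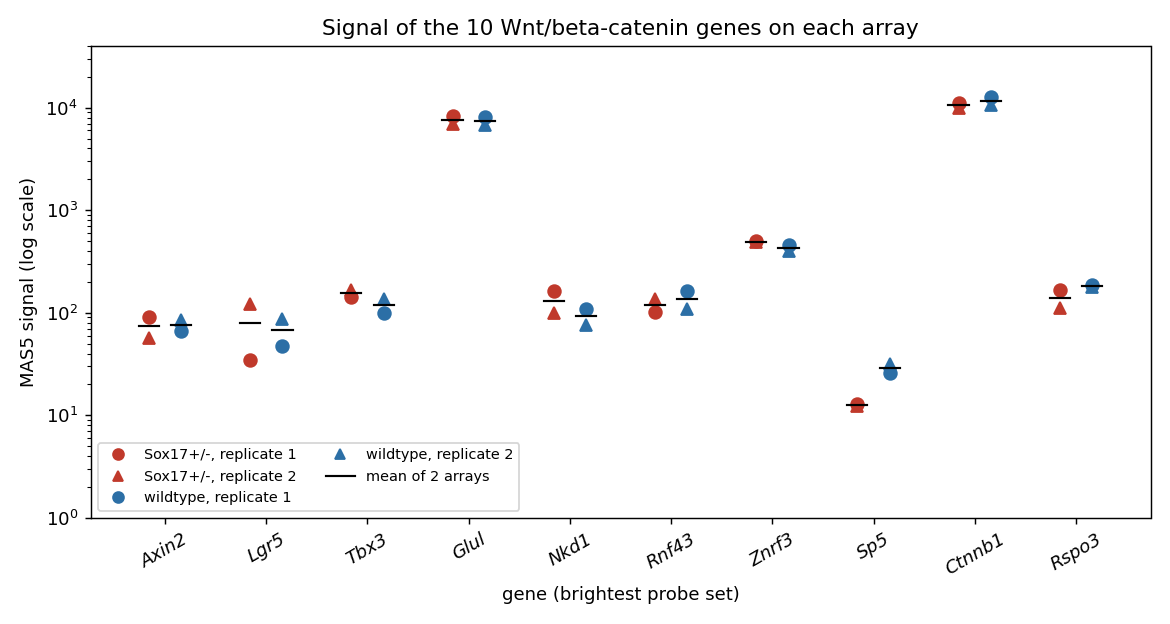
MAS5 signal (log axis) of the brightest probe set of each of the 10 genes, with 1 point per array, Sox17+/- in red on the left and wildtype in blue on the right of each gene, and a bar at the mean of the 2 arrays. Glul and Ctnnb1 nearly coincide between genotypes, Tbx3 and Znrf3 sit higher and Sp5 and Rspo3 lower in Sox17+/-, and the 2 Sox17+/- arrays are widest apart for Lgr5, at 35.0 and 123.

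On the ligand side, Rspo3 had signals of 166 and 110 in Sox17+/- livers, against 185 and 176 in wildtype livers. Both Sox17+/- arrays were lower, and the 2 Sox17+/- arrays lay further from each other than the wildtype arrays did. The log2 difference was -0.37 (SE 0.25, adjusted p = 0.9999 by limma, n = 2 each), or 0.771-fold, with a 95% interval of -1.03 to 0.28. It ranged from -0.64 to -0.11 as single arrays were left out. A second, much dimmer Rspo3 probe set, at the 10.2 percentile of brightness, gave 6.58 and 36.2 in Sox17+/- livers against 5.91 and 8.98 in wildtype livers, and so did not repeat the lower values.

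In the adult mouse liver Rspo3 comes from endothelial and stellate cells, so markers of these are given beside it. Over all tested genes 14.5% were above and 18.7% below without overlap, against which the marker counts are to be read. Of 10 endothelial markers, 4 were above and 1 below without overlap, and their summed signal was 9499 and 9877 in Sox17+/- livers against 9947 and 7820 in wildtype livers. Of 10 stellate cell and mesenchyme markers, 3 were above and 0 below, with sums of 14785 and 16290.2 in Sox17+/- livers against 15203 and 13928 in wildtype livers. The 2 stellate markers furthest apart were Des and Ngfr. Without wildtype array 1, 6 endothelial and 8 stellate markers were above, and 1 and 0 below. Without Sox17+/- array 1, 6 and 5 were above, and 1 and 0 below. Without wildtype array 2, 4 and 3 were above, and 4 and 4 below. Without Sox17+/- array 2, 4 and 4 were above, and 4 and 2 below. Of all tested genes 29.1% to 31.4% were then above and 34.7% to 37.7% below. Des, which encodes desmin, had 251 and 195 in Sox17+/- livers against 125 and 69.7 in wildtype livers. Ngfr, the nerve growth factor receptor, had 341 and 373 in Sox17+/- livers against 117 and 208 in wildtype livers. Neither passed the limma test (adjusted p = 0.9999). The mesothelium is the cell layer that covers the liver, and is not among the sources of Rspo3 named above. Of its 6 markers 3 were tested, and 2 of these, Upk3b and Upk1b, were below without overlap. The remaining one, Gpm6a, had 162 and 137 in Sox17+/- livers against 156 and 108 in wildtype livers, with overlap. Of the 3 dim mesothelial markers 0 were above and 2 below. The mesothelial sum was 569 and 502 in Sox17+/- livers against 701 and 695 in wildtype livers. None of the markers in these 3 lists was listed at 0, and their lowest signals were 209.5 for endothelial Tek, 69.7 for Des and 19.0 for mesothelial Msln. The part of these cell types in the Rspo3 values was not tested.

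At the receptor level, Lgr5, an R-spondin receptor, had signals of 35.0 and 123 in Sox17+/- livers, against 47.5 and 87.4 in wildtype livers. The replicates of a genotype differed more than the genotypes did: the higher Sox17+/- value was 3.51 times the lower one, and the means were 78.8 ± 62.0 in Sox17+/- and 67.4 ± 28.2 in wildtype livers (SD, n = 2 each). Its probe set, at the 45.6 percentile of brightness, was among the dim ones left out of the test, and its 95% interval of -1.50 to 1.60 on the log2 scale allows a difference of 3.04-fold. The second Lgr5 probe set, dimmer still, had 60.0 and 32.2 in Sox17+/- livers against 7.91 and 12.2 in wildtype livers. Here both Sox17+/- arrays were higher, with a log2 difference of 1.22 (SE 0.33, adjusted p = 0.927 by limma without a filter on dim probe sets).

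Rnf43 and Znrf3 encode membrane ubiquitin ligases that remove Frizzled receptors and are themselves cleared when R-spondins and Lgr receptors engage them. Znrf3 had 496 and 489 in Sox17+/- livers, against 460 and 405 in wildtype livers. Both Sox17+/- arrays were higher, by a log2 difference of 0.18 (SE 0.20, adjusted p = 0.9999 by limma), or 1.14-fold, with a 95% interval of -0.33 to 0.70. Its genotype difference exceeded the differences between replicates of either genotype, as for 21.2% of all tested genes, and no other tested member did so. Rnf43 had 103 and 136 in Sox17+/- livers, against 161 and 109 in wildtype livers, and the genotypes overlapped. A second, dim Znrf3 probe set had 52.9 and 27.2 in Sox17+/- livers against 30.8 and 80.3 in wildtype livers, with overlap.

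Ctnnb1 encodes beta-catenin itself, which the pathway controls through protein stability, a step that RNA levels do not show. It had 11047 and 9996 in Sox17+/- livers, against 12766 and 10593 in wildtype livers. The genotypes overlapped, and the log2 difference was -0.15 (SE 0.22, adjusted p = 0.9999 by limma), with a 95% interval of -0.70 to 0.41. The other probe sets of Ctnnb1 were also bright and gave log2 differences of -0.07 and 0.07, so the 3 measurements bracketed 0.

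Axin2, Nkd1 and Sp5 are induced by beta-catenin with TCF/LEF in many tissues. Axin2 encodes a scaffold of the destruction complex, Nkd1 encodes an inhibitor that binds Dishevelled, and Sp5 encodes a zinc finger factor that limits TCF-driven transcription. Axin2, the gene most often read as a report of pathway activity, had 91.3 and 56.7 in Sox17+/- livers, against 66.7 and 84.6 in wildtype livers. The wildtype values lay between the Sox17+/- values. Its probe set was at the 46.1 percentile of brightness and its 95% interval was -0.89 to 0.80 on the log2 scale. The second Axin2 probe set, at the 30.8 percentile, had 16.1 and 39.3 in Sox17+/- livers against 46.0 and 60.7 in wildtype livers, with no overlap (log2 difference -0.71, SE 0.37, adjusted p = 0.9997 by limma without a filter on dim probe sets).

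Nkd1 had 163 and 100.03 in Sox17+/- livers, against 110 and 76.6 in wildtype livers. The genotypes overlapped, with means of 131.6 ± 44.7 in Sox17+/- and 93.1 ± 23.3 in wildtype livers (SD, n = 2 each). Another tested Nkd1 probe set ran the other way, with 51.8 and 71.8 in Sox17+/- livers against 104 and 134 in wildtype livers. The log2 differences of these 2 probe sets were 0.42 (95% interval -0.37 to 1.21) and -0.80 (95% interval -1.43 to -0.16, adjusted p = 0.9999 by limma). The intervals are for single probe sets and are not adjusted for their number, and the gene was left without a common direction.

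Sp5 had 12.96 and 12.3 in Sox17+/- livers, against 26.1 and 31.5 in wildtype livers. Both Sox17+/- arrays were lower and the replicates lay close together, so Sp5 was the other member, besides Znrf3, whose genotype difference exceeded both differences between replicates. The log2 difference was -0.64 (SE 0.25, adjusted p = 0.9997 by limma without a filter on dim probe sets), with a 95% interval of -1.30 to 0.01, and -0.73 to -0.56 as single arrays were left out. At so low a signal the size depends on the constant added before the log, with -1.12 for a constant of 1 and -0.28 for 64. Its only probe set was at the 15.99 percentile of brightness, where MAS5 signals are small and noisy, and calls of presence or absence were not used here.

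The promoters of Sp5 and Axin2 are shown because both genes are read as direct TCF/LEF targets while only Sp5 had TCF/LEF letters in this window. RefSeq on GRCm38.p6 gave a window of 250 bases before to 50 after the start for 6 of the 10 genes, Sp5, Axin2, Glul, Nkd1, Ctnnb1 and Rnf43. Both printed sequences are on the plus strand, Sp5 at chr2:70474673-70474972 and Axin2 at chr11:108920099-108920398, and capitals mark TCF/LEF matches.
Sp5: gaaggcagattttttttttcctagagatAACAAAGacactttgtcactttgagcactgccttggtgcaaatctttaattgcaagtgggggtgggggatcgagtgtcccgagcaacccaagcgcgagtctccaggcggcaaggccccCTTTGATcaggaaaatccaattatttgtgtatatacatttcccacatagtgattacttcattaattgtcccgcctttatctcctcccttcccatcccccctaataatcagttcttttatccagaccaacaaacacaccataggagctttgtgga
Axin2: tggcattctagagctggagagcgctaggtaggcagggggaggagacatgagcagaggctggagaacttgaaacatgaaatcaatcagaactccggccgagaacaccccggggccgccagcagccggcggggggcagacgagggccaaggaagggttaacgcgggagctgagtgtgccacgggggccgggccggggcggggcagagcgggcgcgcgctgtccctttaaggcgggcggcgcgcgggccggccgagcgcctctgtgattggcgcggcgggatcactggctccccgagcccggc
The TCF/LEF letters searched were CTTTG followed by 2 bases that are each adenine or thymine, on both strands. Sp5 held 2 matches, beginning 222 and 104 bases before the start, and the other 5 genes held 0 in their windows. Of all 32851 promoter windows, 16.9% held at least 1 match. The SOX core letters ACAAT, searched on both strands, occurred once in the Sp5 window and once in 1 of the Rnf43 windows, and in 31.0% of all windows. No TCF/LEF match overlapped a SOX match in Sp5, whose SOX letters began 41 bases before the start. A match is a description of the letters and not evidence of binding.

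Glul and Tbx3 are, like Axin2 and Lgr5, among the members that adult hepatocytes next to the central vein express. Glul encodes glutamine synthetase, which fixes ammonia in the pericentral hepatocytes of the adult liver. It had 8235 and 6871 in Sox17+/- livers, against 8162 and 6726 in wildtype livers. Arrays numbered 1 were higher than arrays numbered 2 in both genotypes, by 0.27 on the log2 scale, while the genotypes differed by 0.02 (SE 0.23, adjusted p = 0.9999 by limma). The 95% interval of -0.56 to 0.60 leaves room for a difference of up to 1.52-fold. The second, also bright probe set of Glul had 4358 and 3444 in Sox17+/- livers against 3119 and 2840 in wildtype livers, with no overlap and a log2 difference of 0.38 (SE 0.22, adjusted p = 0.9999 by limma).

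Tbx3, which keeps hepatoblasts dividing in the mouse embryo, had 144 and 165 in Sox17+/- livers, against 99.1 and 137 in wildtype livers. Both Sox17+/- arrays were higher, by a log2 difference of 0.36 (SE 0.24, adjusted p = 0.9999 by limma), or 1.28-fold, with a 95% interval of -0.25 to 0.97. As single arrays were left out it lay between 0.16 and 0.56. The 4 other Tbx3 probe sets were all dim and did not share a direction, with log2 differences of 0.80, -0.17, -0.90 and 0.07.

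**Figure D2:**
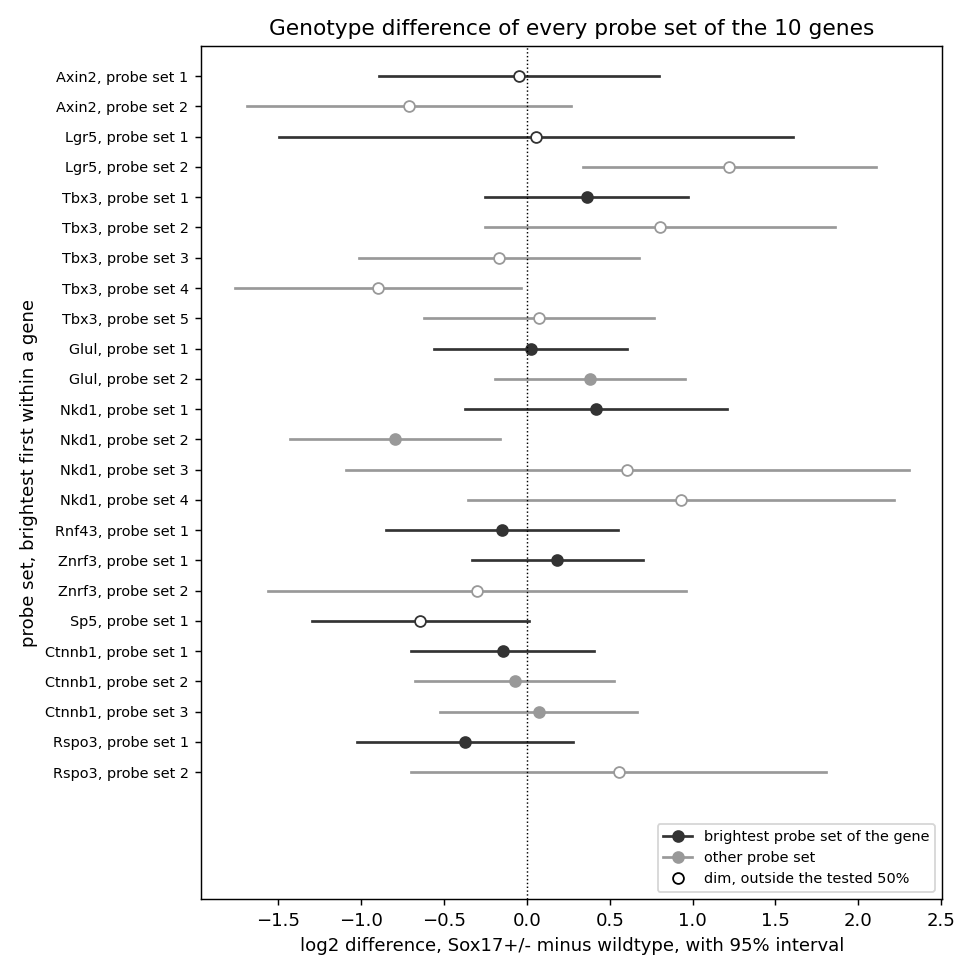
Log2 difference, Sox17+/- minus wildtype, with its 95% interval (lines) for all 24 probe sets of the 10 genes, brightest first within a gene. Black marks the brightest probe set of a gene, grey the others, and open points are dim probe sets outside the tested 50%. Probe sets of Nkd1 and Tbx3 lie on both sides of 0, those of Ctnnb1 lie close to it, and most intervals span 0.

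Over all probe sets of the 10 genes, 6 of 24 were above and 5 of 24 below without overlap, beside 13.7% above and 17.7% below over all 34945 probe sets with 1 symbol. Probe sets of 1 gene share their target and are not independent. Of the 8 genes with over 1 probe set, 3 had all of them on 1 side of 0, namely Axin2, Lgr5 and Glul. Replicate arrays of the same number shared part of their variation. For 7 of 10 members the array numbered 1 differed from that numbered 2 in the same direction in both genotypes, and for 5 of 10 this difference was larger than that between genotypes. In the labels the names of 2 arrays with the same number begin with 1 code, without a statement that it is a batch. Within the arrays numbered 1 and those numbered 2, the log2 differences were 0.47 and 0.25 for Tbx3, 0.11 and 0.26 for Znrf3, -0.14 and -0.61 for Rspo3, and -0.54 and -0.75 for Sp5. In these genes the genotypes do not overlap, so the shared sign follows from that and adds nothing to it. The differences were 0.51 and 0.32 for Nkd1, -0.21 and -0.08 for Ctnnb1 and 0.01 and 0.03 for Glul, also with 1 sign in each gene. Those of Axin2 were 0.38 and -0.47, those of Lgr5 -0.32 and 0.42, and those of Rnf43 -0.58 and 0.28, with opposite signs in the arrays numbered 1 and 2.

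The rest of the pathway was read from 8 lists of other genes, of which 104 of 107 had a probe set of their own and 65 were bright enough to test. With limma 0 of the 65 passed in either direction, and 1 had an unadjusted p under 0.05, against 4.15% of all tested genes. Without overlap 11 were above and 11 below, 16.9% each way, beside 14.5% above and 18.7% below over all 11676 tested genes. The median log2 difference of the 65 was 0.00, and that of all tested genes -0.02. None of the tested genes named from these lists passed (adjusted p = 0.9999 by limma for each).

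Of the Wnt ligands and their export factors 8 of 21 were tested, 0 above and 1 below. That gene was Wnt11, a ligand that acts mostly outside the beta-catenin branch, with 113 and 145 in Sox17+/- livers against 157 and 176 in wildtype livers. Wnt2, which sinusoidal and central vein endothelium supplies in the adult, had 226 and 146 in Sox17+/- livers against 187 and 171 in wildtype livers, while Wnt9b, its partner there, was too dim to be tested, with 28.3 and 9.77 in Sox17+/- livers against 33.4 and 9.38 in wildtype livers. Both were chosen after their values were seen. Among the other R-spondins and Lgr receptors 3 of 5 were tested, 0 above and 1 below, beside 14.5% and 18.7% of all tested genes. Of the 2 dim ones, Rspo1 was above and Rspo4 below without overlap. Rspo2, a relative of Rspo3, had 137 and 138 in Sox17+/- livers against 191 and 174 in wildtype livers. It was below without overlap, as Rspo3 was. Lgr4, chosen after its values were seen, had 1656 and 1428 in Sox17+/- livers against 1974 and 1479 in wildtype livers, with overlap. Lgr6 overlapped too, with 105 and 126 in Sox17+/- livers against 144 and 90.3 in wildtype livers.

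Of the receptors 8 of 15 were tested, 1 above and 1 below, beside 14.5% and 18.7% of all tested genes. The co-receptor gene Lrp6 had 844 and 776 in Sox17+/- livers against 703 and 608 in wildtype livers. Fzd4, a Frizzled of endothelial cells, had 339 and 317.5 in Sox17+/- livers against 497 and 362 in wildtype livers. The 2 genes thus lay on opposite sides of the wildtype values.

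Of the extracellular inhibitors 9 of 17 were tested, 1 above and 5 below without overlap, with a median log2 difference of -0.23. Of the 7 dim ones 3 were above and 0 below (Dkk2, Cer1 and Sost, named after their values were seen), so that over all 16 with a probe set 4 were above and 5 below. Apcdd1, a membrane-bound inhibitor of Wnt receptors, had 132 and 69.9 in Sox17+/- livers against 187 and 192 in wildtype livers, 0.55-fold on the log2(signal + 16) scale. It was the 1 gene of the 65 with an unadjusted p under 0.05 (0.0396 by limma, with an adjusted p of 0.9999). Dkk3, a Dickkopf relative, had 85.1 and 76.5 in Sox17+/- livers against 90.6 and 127 in wildtype livers. Frzb, a secreted Wnt-binding protein, was on the other side, with 153 and 91.5 in Sox17+/- livers against 76.8 and 60.7 in wildtype livers. Among the tested genes the number below was 5 or 6 whichever array was left out, and the number above was 3 without Sox17+/- array 2 and 2 without wildtype array 2. Over all tested genes the share below rose from 18.7% with all arrays to 34.7% to 37.7% with 1 left out. The share above rose from 14.5% to 29.1% to 31.4%.

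Of the cytoplasmic components 16 of 19 were tested, 4 above and 1 below, beside 14.5% and 18.7% of all tested genes. Csnk1e, a casein kinase that acts on Dishevelled, had 333 and 380 in Sox17+/- livers against 279 and 264 in wildtype livers. Gsk3b, a kinase of the destruction complex, had 822 and 763 in Sox17+/- livers against 627 and 679 in wildtype livers. Dvl1, a Dishevelled, had 1413 and 1555 in Sox17+/- livers against 1774 and 1790.4 in wildtype livers. The first 2 were thus higher and the third lower without overlap, all within 1.3-fold on the log2(signal + 16) scale. As single arrays were left out, 5 to 8 genes of the list were above and 3 to 5 below, beside 29.1% to 31.4% and 34.7% to 37.7% of all tested genes.

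Among TCF factors and nuclear partners 9 of 12 were tested, 2 above and 0 below, beside 14.5% and 18.7% of all tested genes. The 2 above were the co-activator Bcl9 and the co-repressor Tle3. Bcl9 had 196 and 236 in Sox17+/- livers against 178 and 165 in wildtype livers. Tle3 had 670.3 and 590.1 in Sox17+/- livers against 510.4 and 553 in wildtype livers. Cadherins hold a second pool of beta-catenin at cell junctions. All 5 of that list were tested and 1, Cdh2, lay above, with 1548 and 1665 in Sox17+/- livers against 1494 and 1338 in wildtype livers.

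Among Wnt targets known mostly from other tissues 7 of 13 were tested, 2 above and 2 below, beside 14.5% and 18.7% of all tested genes. Myc, a growth-promoting factor with many inputs besides Wnt, had 2081 and 2163 in Sox17+/- livers against 1565 and 1558 in wildtype livers, 1.35-fold. Tnfrsf19, a receptor of the TNF family, had 163 and 149.9 in Sox17+/- livers against 271 and 174 in wildtype livers. Sox4, a SOX factor, had 1537 and 1499 in Sox17+/- livers against 1971 and 1591 in wildtype livers. The tested targets therefore did not share a direction, as the plot of pathway genes shows. Of the 5 dim ones 0 were above and 4 below without overlap. Over all 12 with a probe set 2 were thus above and 6 below, beside 13.9% and 19% of all 18193 genes.

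**Figure D3:**
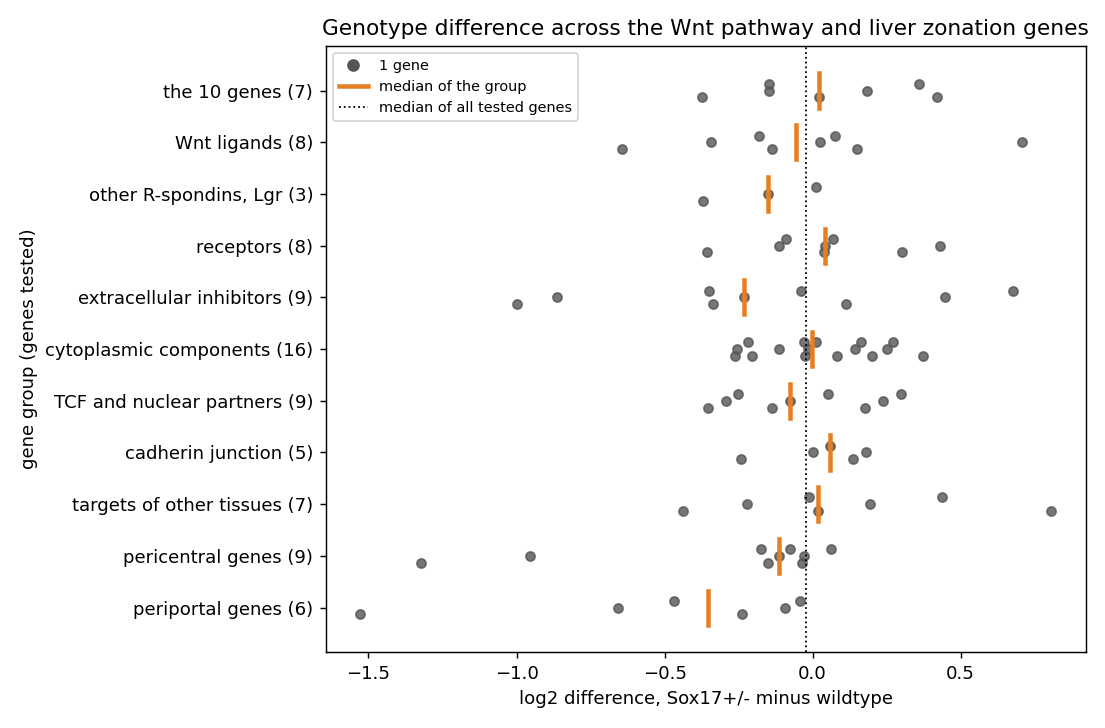
Log2 difference, Sox17+/- minus wildtype, of each tested gene (points) in the 10-gene set and 10 other lists, with the median of each list (orange) and of all tested genes (dotted line, -0.02). The medians of the pathway lists lie between -0.23, for the extracellular inhibitors, and 0.06, for the cadherin junction list.

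Zonation genes were read beside the pathway, since beta-catenin favours pericentral and holds back periportal genes in the adult liver. These livers were from gestation day 17, and whether the adult relation holds at that age was not tested. The medians of both lists were below 0, and 0 genes of either list were above without overlap, beside 14.5% above and 18.7% below over all tested genes. Of the pericentral genes 9 of 12 were tested and 1 lay below without overlap, with a median log2 difference of -0.11. Of the periportal genes 6 of 12 were tested and 2 lay below, with a median of -0.35. Cyp7a1, the first enzyme of bile acid synthesis, had 121 and 70.9 in Sox17+/- livers against 413 and 158 in wildtype livers. Cyp2f2, a periportal cytochrome P450, had 92.5 and 59.7 in Sox17+/- livers against 311 and 193 in wildtype livers. Asl, a urea cycle enzyme, had 1482 and 1440 in Sox17+/- livers against 1824 and 1630 in wildtype livers. None passed the limma test (adjusted p = 0.9999). The number of periportal genes below was 2 without wildtype array 1 or without Sox17+/- array 2, 6 without wildtype array 2 and 5 without Sox17+/- array 1. The number of pericentral genes below was 4 without wildtype array 1, 5 without wildtype array 2, 2 without Sox17+/- array 1 and 4 without Sox17+/- array 2. Over all tested genes 34.7% to 37.7% were then below. Genes above appeared too, namely 2 pericentral genes without wildtype array 1 or wildtype array 2, 1 pericentral gene without Sox17+/- array 1 and 1 periportal gene without wildtype array 1.

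**Figure D4:**
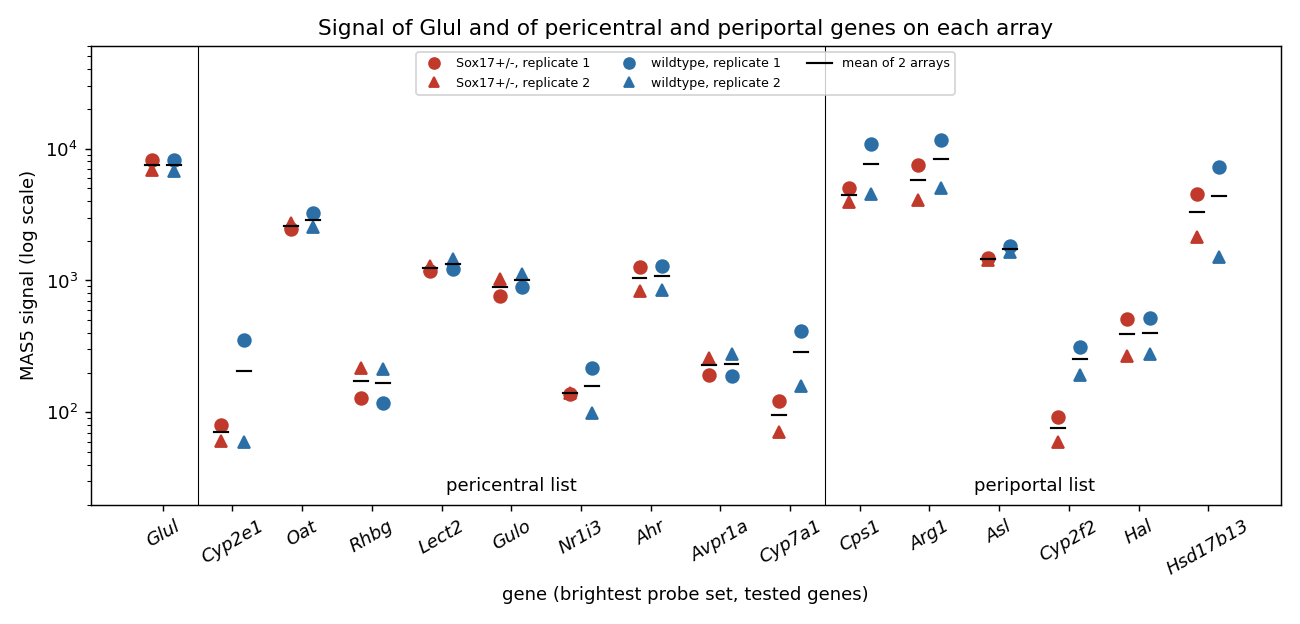
MAS5 signal (log axis) of Glul, of the 9 tested pericentral genes and of the 6 tested periportal genes, with 1 point per array, Sox17+/- in red on the left and wildtype in blue on the right, and a bar at the mean of the 2 arrays. Wildtype array 1 is the highest point for several genes, among them Cyp2e1, Cyp7a1, Cps1, Arg1, Cyp2f2 and Hsd17b13, while Glul is level between genotypes.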

How the data were processed

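The deposited values were probe set intensity values (signals) on a linear scale, and MAS5 made them, per the submitters' processing notes. MAS5 works on each array alone and scales it to a common mean, so dim signals are noisy and differences in total RNA are removed. The table held 45101 probe sets, and 64 controls were left out. Of the rest, 34945 had 1 gene symbol, 932 several and 9160 none listed. Symbols in the lists were updated through gene IDs to RefSeq (GRCm38.p6), and 174 of 186 list entries, cell type markers included, had a probe set.

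The brighter 50% of probe sets by mean signal were tested, 22519 in all, or 11676 genes. Values were taken as log2(signal + 16), which understates differences of dim genes. The difference Sox17+/- minus wildtype came from limma 3.58.1 (R 4.3.3; lmFit, eBayes, two-sided), with no other term, and Benjamini-Hochberg adjustment ran over all tested probe sets. Members under the brightness limit take values from the same fit on all probe sets. Confidence intervals are 95%, from the moderated standard error. The number of arrays, 2 per genotype, limits the precision, and p-values measure only the spread between these samples. The code was tested on simulated data.

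The members and lists were chosen with earlier results of these data known. Named were the members, Sox17, and from each list up to 3 genes (2 for cell type markers) without overlap, ranked by the lesser of the 2 differences within array numbers. The alternatives tried were pseudocounts of 1 and 64, testing all probe sets or the brighter 25%, median centring, quantile normalization, each array left out, the array number as a block, a trended robust prior, and the mean over a gene's probe sets. Cholangiocyte, erythroid and Kupffer cell markers were measured too: of their tested genes, 0 of 2, 0 of 5 and 1 of 7 lay above without overlap, and 0, 1 and 2 below. Over all tested genes 14.5% lay above and 18.7% below. The Kupffer gene above was Marco, with 5024 and 3274 in Sox17+/- livers against 2257 and 1738 in wildtype livers. Vsig4, 1 of the 2 below, had 130 and 194 in Sox17+/- livers against 811 and 364 in wildtype livers (adjusted p = 0.9999 by limma for each).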

Additional observations from a re-analysis of the deposited data

How the results depend on the processing

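No alternative that kept all 4 arrays gave a member an adjusted p under 0.05. All 12 or 13 alternatives of each kept the direction of Tbx3, Nkd1, Sp5 and Ctnnb1. The filter settings, the array number as a block and the trended prior leave the difference of a probe set unchanged, so their direction was fixed in advance. Without overlap between genotypes, as in Tbx3, Znrf3, Rspo3 and Sp5, other pseudocounts and left-out arrays could not turn the direction either. Sp5 has only 1 probe set, so the mean over probe sets repeats its value. For Nkd1 the direction is that of the brightest probe set or of the mean, and the other tested probe set ran the other way. With median centring and with the trended, robust prior 3 probe sets of the whole table, all of Hspa1a or Hspa1b and none of a member, were called as higher by limma, and 0 as lower in each. Axin2 turned to 0.00027 with median centring and 0.0287 with quantile normalization. Averaged over a gene's probe sets, the difference was -0.0576 for Znrf3 and 0.0894 for Rspo3, so both turned. As single arrays were left out, Axin2 ran from -0.33 to 0.23 and Lgr5 from -0.67 to 0.78. Rnf43 ran from -0.40 to 0.10 and Glul from -0.12 to 0.16. Nkd1 ran from 0.11 to 0.73 and Ctnnb1 from -0.28 to -0.01, each on 1 side of 0. The cause of these shifts was not tested. Znrf3 ran from 0.10 to 0.27, with a direction that its lack of overlap fixed in advance. The number of members above the wildtype arrays without overlap then ran from 2 to 5 and the number below from 2 to 4, which was chosen as an alternative after seeing the data; fewer arrays overlap less by construction. Same-numbered arrays deviated together (r = 0.383 over the tested probe sets), and their names share a code as well as the number; with 2 pairs and no label that calls this a batch, the pairing was not taken as given. With the replicate block 0 probe sets were called (smallest adjusted p = 0.252), and the smallest among members was 0.693. Dim signals limit Axin2, Lgr5 and Sp5.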
